A study of Mus musculus with 8 samples.

Results

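The matricellular genes of the mouse heart were examined in animals with and without deletion of Mettl3 in cardiomyocytes. They were 10 genes, taken as the rows of the deposited gene table whose symbol equals Cilp, Postn, Ccn1, Ccn2, Ccn5, Thbs1, Thbs4, Spp1, Tnc or Sparc, out of 23045 genes in the table. All 10 had a mean value of at least 1 and were among the 20313 genes tested. In Mettl3 KO hearts, 7 of the 10 rose: Cilp and Thbs4 by about 3-fold or more, the scarce Ccn5 by an uncertain amount, and Postn, Tnc, Ccn2 and Thbs1 by less than 2-fold. Ccn1, Sparc and Spp1 did not pass the test, and none of the 10 fell.

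Matricellular proteins are secreted into the extracellular matrix, where they act mainly on cell behaviour and matrix assembly rather than as structural fibres. They bind integrins and other receptors, growth factors and collagen, and most are made at low levels in the healthy adult heart and at higher levels in wound repair and fibrosis, largely by fibroblasts. Transforming growth factor beta, mechanical load and the YAP and TEAD transcription factors are known inducers of several of them. METTL3 is the catalytic subunit of the complex that writes N6-methyladenosine (m6A) onto transcripts. The comparison asks how these transcripts differ between hearts with and without this enzyme in their muscle cells.

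The Mettl3 KO mice carried Mettl3 lox/lox together with αMHC-MerCreMer, a tamoxifen-activated Cre recombinase whose promoter drives it in cardiomyocytes. The WT mice carried Mettl3 lox/lox without the transgene. By the study's methods, mice of both genotypes were injected with tamoxifen at 100 µg per 1 g body weight on 7 consecutive days, beginning between 10 and 16 weeks of age; the time from injection to harvest is not given in the sources used here. All WT mice lacked Cre, so the loss of Mettl3 and the presence of activated Cre cannot be told apart. Each genotype had 4 heart libraries, numbered 1 to 4 in the labels, and the p-values measure the spread between these samples, since the labels name no individual animals.

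The values are normalized read counts, scaled by the authors for library depth and rounded to whole numbers. They summed to 2839589 to 2916986 per library, from 2631904 to 3061268 reads recovered from the spacing of low values, and 3 reads, the limit that a count of 0 allows, correspond to a value of 2.78 to 3.33. This floor covers counting error only. The differences between any 2 libraries exceeded sampling noise, with chi-square per degree of freedom of 1.11 to 1.86 within a genotype and 2.16 to 3.0 between genotypes. Mettl3 itself had 105, 133, 118 and 107 normalized read counts in WT hearts, against 74, 68, 69 and 78 in Mettl3 KO hearts, a log2 fold change of -0.67 (SE 0.10, adjusted p = 0.000184 by limma). The paper names non-cardiomyocytes as the most likely source of the Mettl3 that remains, which was not tested here. Counts over the whole gene do not separate deleted from intact transcripts. All 8 cardiomyocyte markers were detected, 0 of them higher and 1 lower (Ryr2, log2 fold change -0.23, adjusted p = 0.000137 by limma, and -0.09 with adjusted p = 0.206 once an index of atrial markers was a covariate), with 1 of 8 higher at an unadjusted p under 0.05 and 0 higher by limma voom. Markers of atrial muscle differed between libraries. Bmp10 was at 0 in all WT libraries and in Mettl3 KO replicate 1, and at 195, 158 and 358 in replicates 2 to 4. Myl7, a myosin light chain of atrial muscle, was at 0 in WT replicate 3 and at 21 to 26 in the other WT hearts, and how much atrial tissue each library held is not given in the sources used here.

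Sequences around the transcription start are shown for the called members with the largest increases that have an entry in the RefSeq promoter table, Cilp, Thbs4 and Postn, and for Ccn1, which did not rise. The table had entries for 7 of the 10 members, and Ccn2, Ccn5 and Thbs1 were not among them. Each run covers 250 bases before to 50 after the start in GRCm38.p6, 5′ to 3′ on the gene's strand, with motif matches in capitals: TATAAA (the TATA box), CATTCC (the reverse complement of GGAATG, the TEAD motif) and TGTCTG (the reverse complement of CAGACA, the SMAD motif). The windows are chr9:65264930-65265229 on the plus strand for Cilp, chr3:54360857-54361156 on the plus strand for Postn, chr13:92794769-92795068 on the minus strand for Thbs4 and chr3:145649936-145650235 on the minus strand for Ccn1.
Cilp: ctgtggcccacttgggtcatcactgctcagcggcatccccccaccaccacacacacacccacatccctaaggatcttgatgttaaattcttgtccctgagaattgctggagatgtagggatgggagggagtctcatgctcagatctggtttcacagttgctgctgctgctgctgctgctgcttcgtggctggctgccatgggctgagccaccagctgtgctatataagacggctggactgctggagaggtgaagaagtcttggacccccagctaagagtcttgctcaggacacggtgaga
Postn: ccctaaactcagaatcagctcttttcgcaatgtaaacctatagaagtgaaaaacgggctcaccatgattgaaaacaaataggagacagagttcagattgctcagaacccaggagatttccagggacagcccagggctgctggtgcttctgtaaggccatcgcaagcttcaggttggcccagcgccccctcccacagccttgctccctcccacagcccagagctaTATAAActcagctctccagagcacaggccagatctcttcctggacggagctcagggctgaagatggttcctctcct
Thbs4: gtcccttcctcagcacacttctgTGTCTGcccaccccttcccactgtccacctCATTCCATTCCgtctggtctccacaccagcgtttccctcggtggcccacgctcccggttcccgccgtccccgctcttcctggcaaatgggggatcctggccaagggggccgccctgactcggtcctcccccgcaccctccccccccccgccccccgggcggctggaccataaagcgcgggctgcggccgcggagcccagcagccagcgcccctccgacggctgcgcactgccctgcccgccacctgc
Ccn1: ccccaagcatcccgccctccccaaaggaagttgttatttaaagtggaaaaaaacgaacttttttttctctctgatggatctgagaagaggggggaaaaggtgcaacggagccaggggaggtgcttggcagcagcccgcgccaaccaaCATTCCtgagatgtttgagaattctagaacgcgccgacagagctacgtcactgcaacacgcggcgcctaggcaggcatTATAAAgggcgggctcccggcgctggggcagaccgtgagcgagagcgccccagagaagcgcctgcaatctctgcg

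Thbs4 held a pair of TEAD motifs that overlap by 1 base, at -197 to -187 from the start, and a SMAD motif at -227. Ccn1 held a TEAD motif at -103 and a TATA box at -25, and Postn a TATA box at -26. The Cilp window held none of the motifs searched, which were these 3, the AP-1 motif TGANTCA and the CArG box bound by serum response factor, each on both strands. Over 32851 promoters of the same length, 14.7% held GGAATG, 21.0% CAGACA, 7.81% TGANTCA, 1.63% a CArG box and 13.6% TATAAA. A match describes letters only, and no factor binding was measured.

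The m6A consensus is also a sequence feature of these transcripts, and its form GGACT was counted in the GENCODE transcript with the longest coding part of each member. The CCN genes are shown because they are close relatives that differed in their response. The site nearest to the last coding base of each, with GGACT in capitals, reads as follows in Ccn1 and Ccn2, where it lies in the coding part, and in Ccn5, where it lies after it.
Ccn1: aagttcagGGACTaagtgcct
Ccn2: atgggccaGGACTgcagcgcg
Ccn5: caggccctGGACTgatggtag

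Ccn1 held 4 GGACT in its transcript, Ccn2 held 1 and Ccn5 held 4, or 1.98, 0.417 and 2.33 per kb. Among the other members Postn had 0.375 per kb, Cilp 1.20, Sparc 1.46, Thbs4 1.88, Spp1 2.13, Thbs1 2.22 and Tnc 2.39. Over 14384 transcripts, 1 for each tested protein-coding gene with coding sequence, the median was 1.05 per kb and the quartiles 0.644 and 1.55. The lowest densities belonged to Postn and Ccn2 and the highest to Tnc. A link between density and response was not tested. Mettl3 was deleted in cardiomyocytes, while these proteins are known to be made largely by fibroblasts. Whether any of these sites is methylated was not measured here.

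Read against the whole table, 7 of the 10 members had a limma adjusted p under 0.05 (Benjamini-Hochberg over all genes), where 1607 of 20313 genes, 7.91%, did so. All 7 were higher, against 4.72% of genes called higher, and 0 members were lower, against 3.19%, with 0 lower also at an unadjusted p under 0.05 and by limma voom. The same 7 members had every Mettl3 KO library above every WT library, as had 6.46% of the genes tested. The median log2 fold change of the 10 members was 0.95, beside -0.01 for all genes tested. Leaving out Mettl3 KO replicate 3 lowered the count of called genes to 1019. The sum over the members was 1955 to 2169 normalized read counts in WT and 2568 to 3123 in Mettl3 KO hearts, and Sparc and Postn made up most of it.

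**Figure D1:**
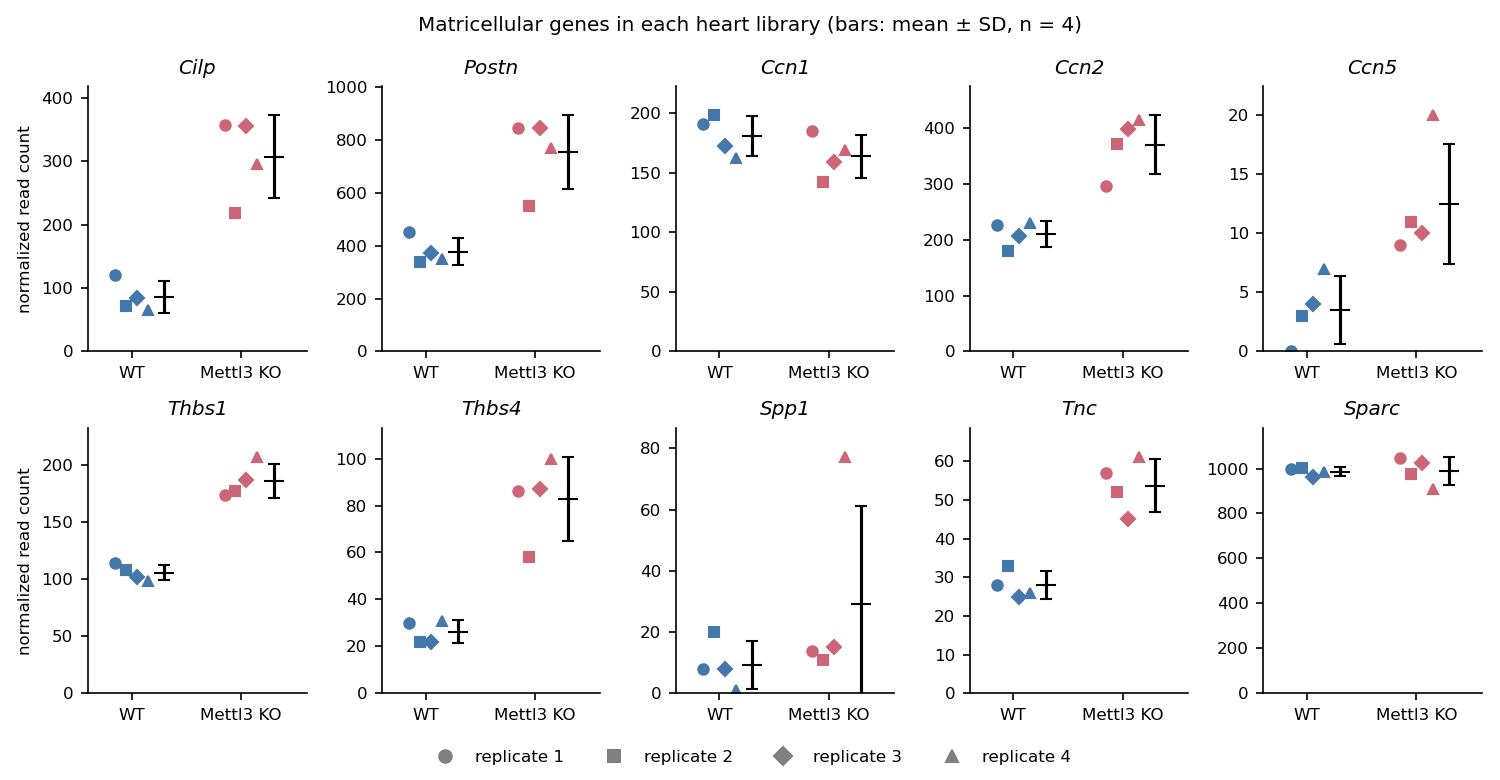
Normalized read count of each matricellular gene in the 4 WT (blue) and 4 Mettl3 KO (red) heart libraries, with marker shapes for replicates and bars for mean ± SD; each axis starts at 0, where the lower bar of Spp1 is cut off. Cilp, Postn, Ccn2, Ccn5, Thbs1, Thbs4 and Tnc separate the genotypes without overlap, Ccn1 and Sparc overlap, and a single Mettl3 KO library carries 77 counts of Spp1.

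Cilp (cartilage intermediate layer protein, ENSMUSG00000042254) encodes a secreted matrix protein that binds transforming growth factor beta and is made by cardiac fibroblasts. Its gene lies on mm39 chromosome 9 from 65172462 to 65187887, plus strand. WT hearts had 121, 72, 85 and 66 normalized read counts, and Mettl3 KO hearts 357, 219, 356 and 296. Even the lowest Mettl3 KO heart stood well above the highest WT heart. The means were 86.0 ± 24.6 and 307 ± 65.2 (SD, n = 4 each), and the log2 fold change of 1.84 (SE 0.15, adjusted p = 7.0e-08 by limma), or 3.57-fold with a 95% interval of 2.88 to 4.44, had the smallest p among the members.

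Postn (periostin, ENSMUSG00000027750) promotes collagen crosslinking and binds integrins, and is a standard marker of activated cardiac fibroblasts. It lies on mm39 chromosome 3 from 54268530 to 54298458, plus strand. Its values were 453, 337, 371 and 349 in WT hearts, against 846, 549, 843 and 770 in Mettl3 KO hearts. Replicate 2 was the lowest of the Mettl3 KO hearts for Postn, Cilp and Thbs4 alike, and still above every WT heart. From 378 ± 52.3 to 752 ± 140 normalized read counts (SD, n = 4 each), the log2 fold change was 0.98 (SE 0.10, adjusted p = 2.2e-06 by limma).

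The CCN family of cysteine-rich secreted proteins had 3 members here, of which Ccn2 and Ccn5 rose and Ccn1 did not pass the test. Ccn1 (Cyr61, ENSMUSG00000028195, mm39 chromosome 3, 145352731 to 145355736, minus strand) and Ccn2 (connective tissue growth factor, ENSMUSG00000019997, mm39 chromosome 10, 24471340 to 24474581, plus strand) are integrin ligands and well-known targets of YAP and TEAD. Ccn5 (ENSMUSG00000027656, mm39 chromosome 2, 163662781 to 163675066, plus strand) lacks the C-terminal module of the others and is known to oppose Ccn2 in heart fibrosis.

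Ccn1 had 191, 198, 172 and 162 normalized read counts in WT hearts, against 185, 142, 159 and 169 in Mettl3 KO hearts. The genotypes overlapped. The means were 181 ± 16.6 and 164 ± 18.0 (SD, n = 4 each), with a log2 fold change of -0.14 and a 95% interval of -0.33 to 0.04 (adjusted p = 0.391 by limma).

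Ccn2 had 226, 179, 206 and 230 normalized read counts in WT hearts, against 297, 371, 398 and 415 in Mettl3 KO hearts. The lowest Mettl3 KO value, in replicate 1, was above all WT values. The means rose from 210 ± 23.3 to 370 ± 52.1 (SD, n = 4 each), a log2 fold change of 0.81 (SE 0.09, adjusted p = 4.8e-06 by limma). Ccn2 overlaps the antisense lncRNA gene Gm15270, whose strand-specific means were 52.3 in WT and 51.8 in Mettl3 KO hearts.

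Ccn5 was scarce, with 0, 3, 4 and 7 normalized read counts in WT hearts, against 9, 11, 10 and 20 in Mettl3 KO hearts. Several of the WT values were at or near the floor of 3 reads, so the size of the change is poorly determined, although the genotypes did not overlap. With a pseudocount of 5 the log2 fold change was 1.07. The means were 3.5 ± 2.89 and 12.5 ± 5.07 (SD, n = 4 each), and the log2 fold change of 1.86 had an SE of 0.48 (adjusted p = 0.0183 by limma). This call was lost on leaving out WT replicate 1 (log2 fold change 1.25, adjusted p = 0.053 by limma) or Mettl3 KO replicate 2, 3 or 4 (1.89, 1.94 and 1.62, adjusted p = 0.0599, 0.0539 and 0.0961 by limma).

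The thrombospondins bind calcium, cell surface receptors and matrix proteins. Thbs1 (ENSMUSG00000040152, mm39 chromosome 2, 117942357 to 117957614, plus strand) activates latent transforming growth factor beta and binds CD36 and CD47. WT hearts had 114, 108, 102 and 99 normalized read counts of Thbs1, and Mettl3 KO hearts 174, 178, 187 and 207. Both groups were tight and lay far apart. The means of 106 ± 6.65 and 187 ± 14.7 (SD, n = 4 each) gave a log2 fold change of 0.81 (SE 0.08, adjusted p = 1.7e-06 by limma).

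Thbs4 (ENSMUSG00000021702, mm39 chromosome 13, 92888098 to 92931326, minus strand), a pentameric thrombospondin of tendon, muscle and stressed heart, started from a lower level. Its values were 30, 22, 22 and 31 in WT hearts, against 86, 58, 87 and 100 in Mettl3 KO hearts. The groups were again separate, with replicate 2 the lowest and replicate 4 the highest of the Mettl3 KO hearts. The mean went from 26.3 ± 4.92 to 82.8 ± 17.7 normalized read counts (SD, n = 4 each), a log2 fold change of 1.61 (SE 0.17, adjusted p = 2.3e-06 by limma).

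Tnc (tenascin C, ENSMUSG00000028364, mm39 chromosome 4, 63878022 to 63965252, minus strand) is a large matrix protein of embryonic and injured tissue. It had 28, 33, 25 and 26 normalized read counts in WT hearts, against 57, 52, 45 and 61 in Mettl3 KO hearts. No Mettl3 KO heart fell into the WT range. The means were 28.0 ± 3.56 and 53.8 ± 6.90 (SD, n = 4 each), with a log2 fold change of 0.92 (SE 0.16, adjusted p = 0.000535 by limma). With an index of atrial markers as a covariate it was 0.85 and the call was lost (adjusted p = 0.064 by limma).

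Spp1 (osteopontin, ENSMUSG00000029304, mm39 chromosome 5, 104582984 to 104588916, plus strand) is an integrin and CD44 ligand made by recruited macrophages and other cells of injured hearts. WT hearts had 8, 20, 8 and 1 normalized read counts, and Mettl3 KO hearts 14, 11, 15 and 77. Replicate 4 held the high value of the Mettl3 KO group and also the lowest WT value, and WT replicate 2 exceeded the other 3 Mettl3 KO libraries. The means of 9.25 ± 7.89 and 29.3 ± 31.9 (SD, n = 4 each) gave a log2 fold change of 1.51 with a 95% interval of 0.36 to 2.66 (unadjusted p = 0.0122, adjusted p = 0.104 by limma). Without Mettl3 KO replicate 4 the log2 fold change was 0.90 and without WT replicate 4 it was 0.87 (adjusted p = 0.41 and 0.37 by limma), and 2.0 on leaving out WT replicate 2 (adjusted p = 0.0449 by limma).

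Gpnmb, a macrophage marker also known from lipid-laden macrophages, was named here after its values were seen. It had 8, 35, 10 and 3 normalized read counts in WT hearts, against 14, 7, 13 and 81 in Mettl3 KO hearts. Its highest library in each genotype was the same as that of Spp1. The whole macrophage list did not differ in this way: its summed level was 1131 to 1346 in WT and 1181 to 1410 in Mettl3 KO hearts, and 0 of its 10 genes passed the limma test, with 1 at an unadjusted p under 0.05 and 0 by limma voom. The part of macrophages in the Spp1 values was not tested.

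Sparc (ENSMUSG00000018593, mm39 chromosome 11, 55285326 to 55314009, minus strand), a collagen-binding protein needed for collagen deposition, was the most abundant member and the most constant. WT hearts had 998, 1003, 961 and 984 normalized read counts, and Mettl3 KO hearts 1045, 977, 1023 and 907. The WT values lay inside the Mettl3 KO range. The means were 987 ± 18.8 and 988 ± 61.0 (SD, n = 4 each), and the 95% interval of the log2 fold change, -0.09 to 0.09, excludes a change as large as that of any member that rose (adjusted p = 1.0 by limma).

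**Figure D2:**
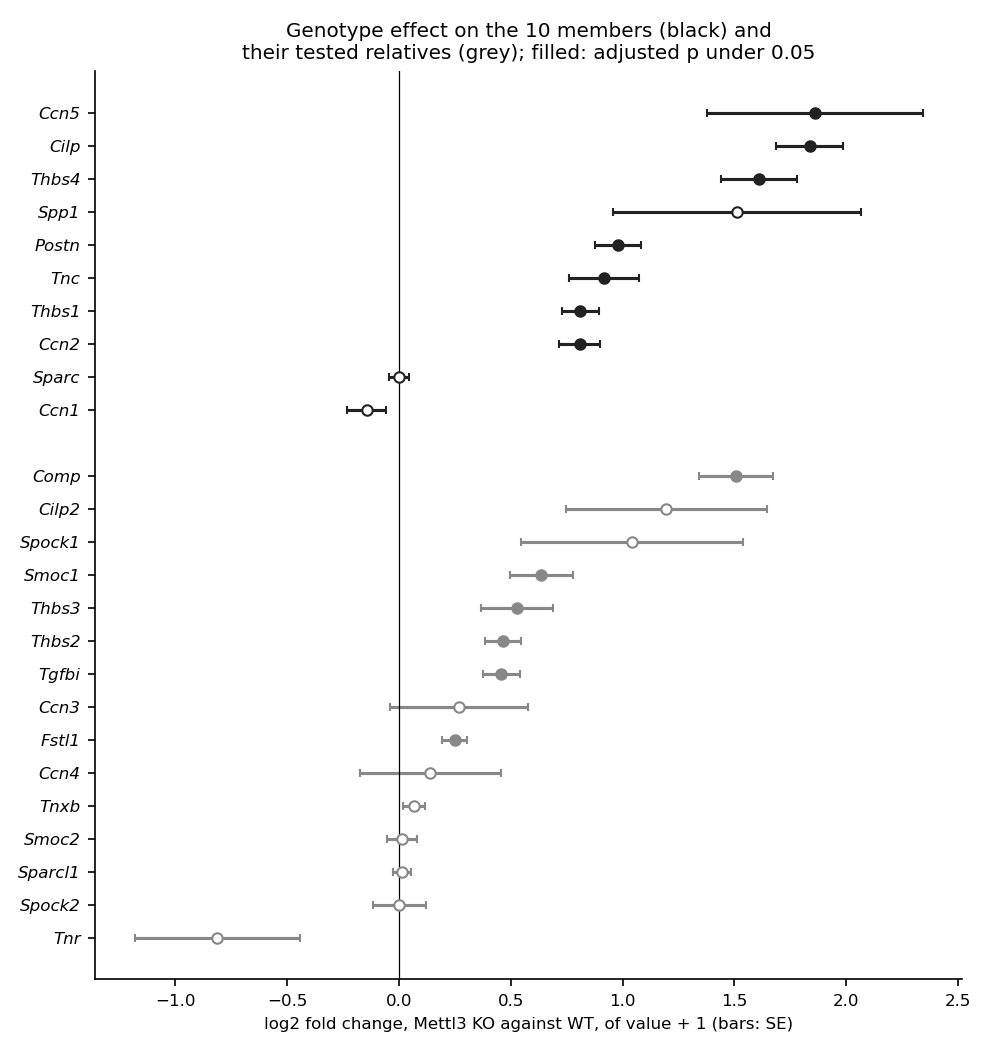
Log2 fold change of value + 1, Mettl3 KO against WT, with SE bars, for the 10 members (black) and 15 related matricellular genes tested (grey); filled points have a limma adjusted p under 0.05. Called members lie between 0.81 and 1.86, Sparc sits at 0.00, and among the relatives Comp stands highest at 1.51.

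Divided by exon length, to compare genes with each other, the order of the members shifted. The length counted every annotated exon of a gene, 8702 nt for Postn, 3788 for Sparc and 2019 for Ccn1. Their transcripts with the longest coding part are 2670, 1366 and 2019 nt long, so the rank of Postn depends on this choice. In WT hearts Sparc was highest at 260 normalized read counts per kb of exon, followed by Ccn1 at 89.5 and Ccn2 at 73.5, whose ranges overlapped. Postn stood at 43.4 per kb, Cilp at 20.2 and Thbs1 at 17.4, and the last pair overlapped. Thbs4 at 7.98, Spp1 at 5.61, Tnc at 3.60 and Ccn5 at 1.82 per kb formed the low end, each overlapping the next.

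In Mettl3 KO hearts Sparc was still highest at 261 normalized read counts per kb, but Ccn2 at 129 now stood above Ccn1 and apart from it. Postn at 86.4, Ccn1 at 81.1 and Cilp at 72.2 per kb overlapped their neighbours in this order. Thbs1 at 30.7, Thbs4 at 25.2, Spp1 at 17.7, Tnc at 6.92 and Ccn5 at 6.50 per kb followed, each overlapping the next. By this length, the order changed only where Ccn2 and Postn passed the mean of Ccn1, and Postn overlapped it. Whether Postn lies below Ccn1 in WT hearts depends on the length used.

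**Figure D3:**
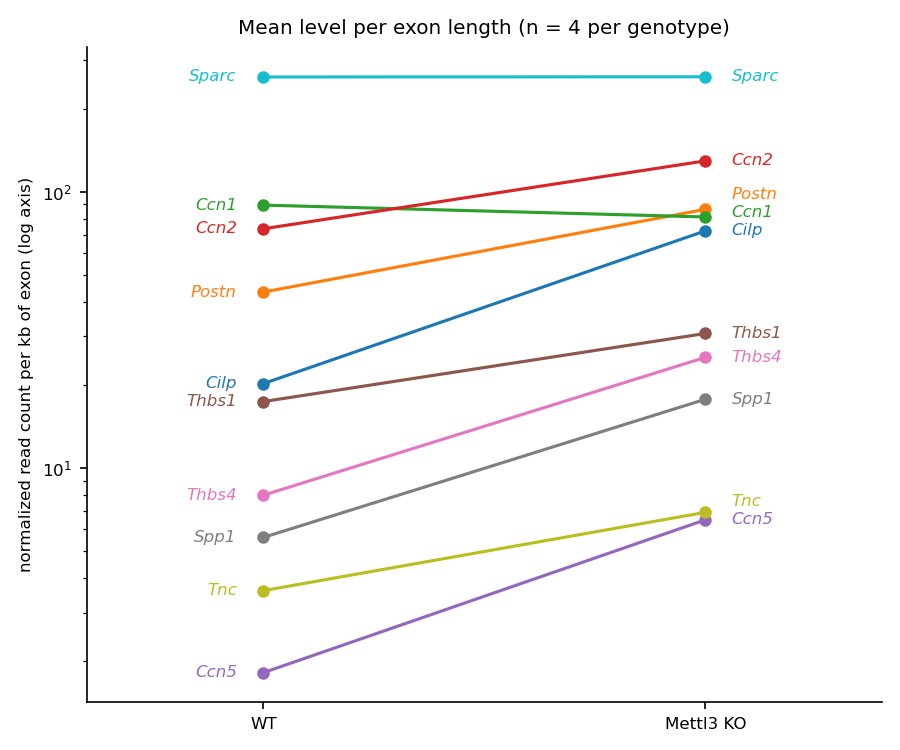
Mean normalized read count per kb of exon for each member in WT and Mettl3 KO hearts (n = 4 each) on a log axis, with a line joining the means of each gene. The lines of Ccn2 and Ccn1 cross, from 73.5 and 89.5 in WT to 129 and 81.1 in Mettl3 KO hearts, and the line of Sparc is flat near 260.

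Relatives were then compared within each library, which removes differences in library scaling. The log2 ratio of Ccn2 to Ccn1 was 0.24, -0.14, 0.26 and 0.50 in WT hearts, against 0.68, 1.38, 1.32 and 1.29 in Mettl3 KO hearts, with no overlap. The difference of 0.95 had an exact two-sided permutation p = 0.0286, the smallest that 4 against 4 libraries allow, and an adjusted p of 0.0381 over the 4 ratios tested. Thbs4 rose relative to Thbs1, from a mean log2 ratio of -1.99 ± 0.27 to -1.19 ± 0.28 (SD, n = 4 each; difference 0.80, exact permutation p = 0.0286, adjusted 0.0381). Postn rose relative to Tgfbi, its closest relative, by 0.52 (from 1.18 ± 0.19 to 1.70 ± 0.20, SD, n = 4 each; exact permutation p = 0.0286, adjusted 0.0381). The log2 ratio of Sparc to Sparcl1 differed by -0.01, and the genotypes overlapped (exact permutation p = 0.657, adjusted 0.657). Ratios with Ccn5 were not tested because its mean was under 10. With a pseudocount of 5 the adjusted exact p of the first ratios was 0.0571, 0.0762 and 0.0571, so that none passed.

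**Figure D4:**
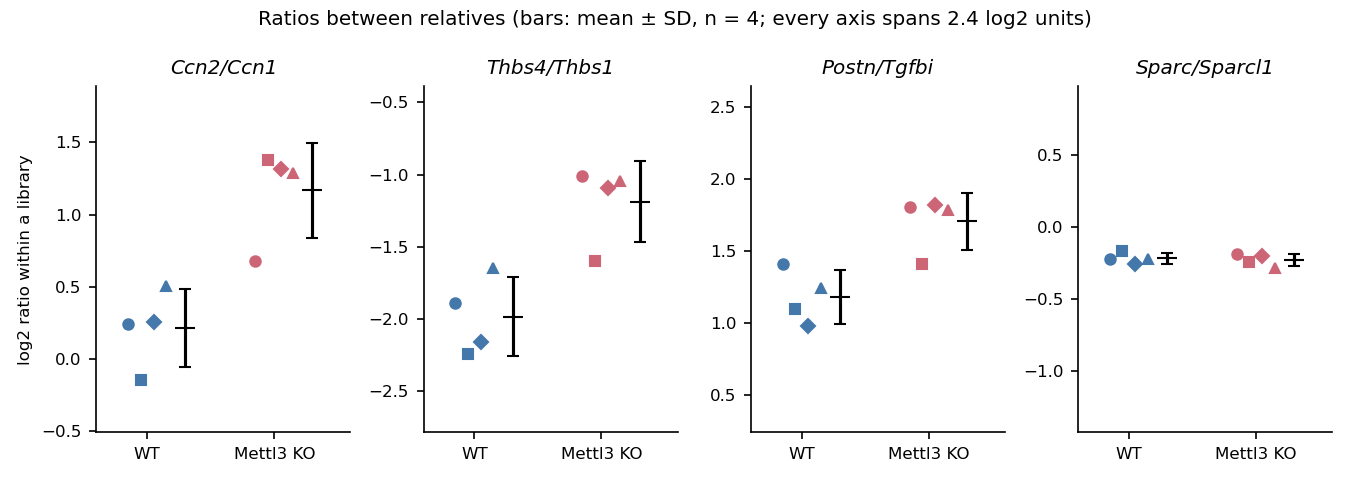
Log2 ratio between related genes within each library, with marker shapes for replicates 1 (circle), 2 (square), 3 (diamond) and 4 (triangle) and bars for mean ± SD (n = 4 each). The WT and Mettl3 KO libraries are separate for Ccn2/Ccn1, Thbs4/Thbs1 and Postn/Tgfbi, whose means differ by 0.95, 0.80 and 0.52, and overlap for Sparc/Sparcl1.

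Beyond the members, 17 of 20 other matricellular genes listed were in the table and 15 were tested. Of these, 6 rose and 0 fell (1 lower at an unadjusted p under 0.05, 0 by limma voom), with a median log2 fold change of 0.27 beside -0.01 for all genes. Comp (thrombospondin 5), a cartilage and tendon relative of Thbs4, went from 19.8 ± 2.99 to 57.8 ± 5.85 normalized read counts (SD, n = 4 each; log2 fold change 1.51, SE 0.17, adjusted p = 3.7e-06 by limma). Smaller increases were found for Smoc1, a calcium-binding relative of Sparc (0.64), Thbs3 (0.53), Thbs2 (0.47), Tgfbi and Fstl1 on the log2 scale. Of the 5 thrombospondins, Thbs1, Thbs2, Thbs4 and Comp were called under all 18 alternatives other than the fibroblast covariate. Thbs3, whose genotypes met at 40 normalized read counts, had an adjusted p of 0.0478 by limma, and it was called in only 6 of the 18, in 1 of the 4 scalings. Smoc1 had 0.39 with an atrial covariate (adjusted p = 0.404 by limma). Spock3 was at 0 in all WT libraries and was not tested.

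Of 26 integrin subunits and other receptors of these proteins 3 rose and 1 fell, with a median log2 fold change of 0.10. At an unadjusted p under 0.05 they were 8 and 2, and by limma voom 2 and 2. As background for the lists, 4.72% of the 20313 genes tested were called higher and 3.19% lower. An unadjusted limma p under 0.05 was reached by 4184 of the genes tested. Itgb6, the integrin beta chain that pairs with the alpha V chain to activate latent transforming growth factor beta, had a log2 fold change of -0.37 and so fell (SE 0.07, adjusted p = 0.00108 by limma), from 283, 339, 282 and 287 to 229, 234, 225 and 231 normalized read counts. Itgb5 (log2 fold change 0.33), the scavenger receptor Lrp1 (0.22) and Itga5 (0.19) rose, although Itga5 was called in only 5 of 18 alternatives other than the fibroblast covariate and the call of Lrp1 was lost without WT replicate 2 or 4 or Mettl3 KO replicate 3. The Thbs1 receptors Cd36 and Cd47 had log2 fold changes of -0.01 and -0.04, and the Spp1 receptor Cd44 0.01 (adjusted p = 0.94, 0.763 and 0.963 by limma).

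Of 16 genes of the transforming growth factor beta, YAP and serum response factor pathways, 3 rose and 0 fell (2 lower at an unadjusted p under 0.05, 0 by limma voom), and their median log2 fold change was 0.03. Tgfb2 had 110, 106, 111 and 115 normalized read counts in WT hearts, against 194, 198, 187 and 196 in Mettl3 KO hearts, a log2 fold change of 0.80 (SE 0.08, adjusted p = 4.8e-07 by limma). Tgfb3 rose by 0.62 and the receptor Tgfbr1 by 0.26 on the log2 scale, and Tgfbr1 was called in only 7 of 18 alternatives other than the fibroblast covariate, with a log2 fold change of 0.03 under the atrial covariate. Tgfb1 had a log2 fold change of -0.30 (adjusted p = 0.0677 by limma). Yap1 and its relative Wwtr1 had log2 fold changes of 0.03 and -0.06 (adjusted p = 0.863 and 0.572 by limma). Among 12 other YAP and TEAD targets, 2 rose, Ankrd1 (0.50) and Arhgef17 (0.21), 0 fell (also 0 at an unadjusted p under 0.05 and by limma voom), and the median was 0.13. The call of Arhgef17 was lost without WT replicate 1 or 4 or Mettl3 KO replicate 1 or 3. The CCN targets Ccn1 and Ccn2 thus stood on either side of this median.

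Most fibroblast markers moved with the members. Of 10 resting fibroblast markers 9 rose, all but Tcf21, with a median log2 fold change of 0.39 and a summed level of 4706 to 5219 in WT and 5853 to 6530 in Mettl3 KO hearts. The largest were Mfap5 (0.68), Lum (0.48), Col3a1 (0.43) and Col1a2 (0.41). Of 10 activated fibroblast markers 6 rose, with a median of 0.54, led by Ltbp2 (2.53), Col12a1 (1.48), Lox (1.17) and Col8a1 (0.71). The 4 not called were Acta2 (0.14), Fap (-0.05), Ddah1 (0.03) and the scarce Cthrc1 (1.11). Their adjusted p was 0.638, 0.873, 0.936 and 0.223 by limma. With the atrial index as a covariate Col12a1 had 0.69 (adjusted p = 0.231 by limma) and the resting markers Mfap5 and Gsn had 0.52 and 0.13 (adjusted p = 0.139 and 0.277 by limma), so that these 3 were no longer called. In bulk heart RNA a change in the number of fibroblasts and a change in RNA per fibroblast cannot be told apart.

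The members were therefore also set against a fibroblast index, the mean log2(value + 1) of the 10 resting markers in the same library, which was 8.24 to 8.44 in WT and 8.63 to 8.79 in Mettl3 KO hearts. The index itself was higher by 0.39 in Mettl3 KO hearts, and subtracting it lowers the difference of every gene by that amount. On this scale 4 members were higher in every Mettl3 KO library than in any WT library, as were 0.66% of the genes tested: Cilp by 1.45, Thbs4 by 1.23, Postn by 0.60 and Thbs1 by 0.43 on the log2 scale. Ccn1 and Sparc, at -0.53 and -0.38, were lower in every Mettl3 KO library, as were 39.2% of the genes tested; the value of Sparc is the shift of the index alone. Ccn5, Spp1, Tnc and Ccn2, at 1.47, 1.13, 0.53 and 0.42, overlapped between genotypes. With the index as a covariate in the fit, 0 members and 8 genes of the table were called. The standard errors of the members were then 1.92 to 3.16 times larger, the log2 fold change of Cilp was 0.27 and that of Postn -0.11 (adjusted p = 0.936 and 0.968 by limma), while those of Thbs1 and Tnc were 0.60 and 1.22 (adjusted p = 0.726 and 0.687 by limma). Those of Ccn2, Thbs4 and Ccn5 were 0.42, 0.65 and 4.10 (adjusted p = 0.855, 0.889 and 0.628 by limma). The index itself separates the genotypes.

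**Figure D5:**
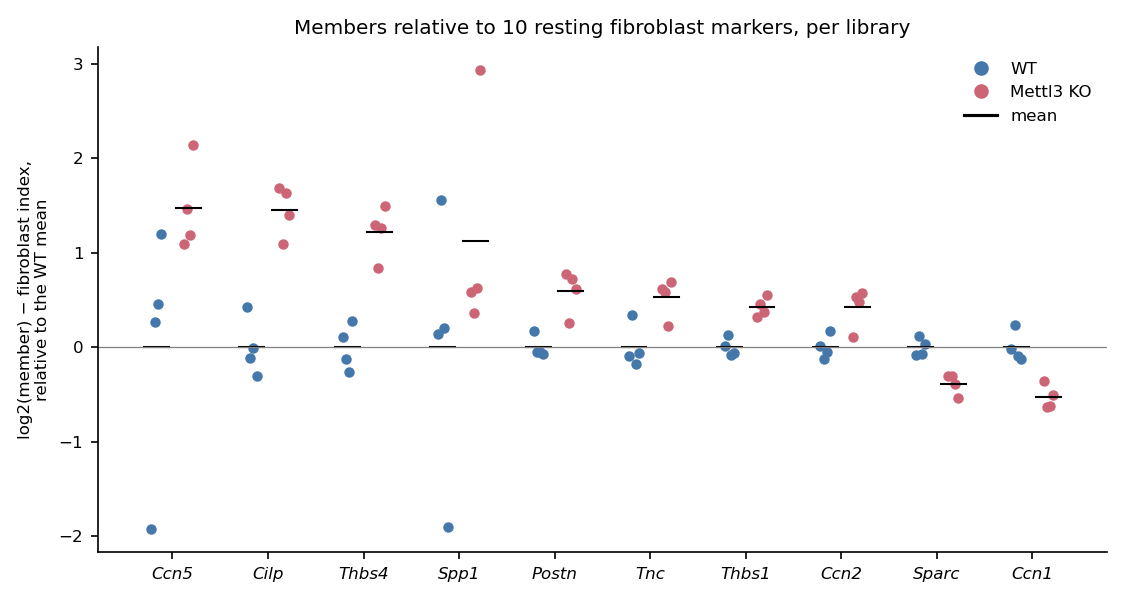
Log2(value + 1) of each member minus the fibroblast index of its library, relative to the WT mean, for 4 WT (blue) and 4 Mettl3 KO (red) libraries, with bars for the means. Cilp, Thbs4, Postn and Thbs1 lie above the WT libraries without overlap, Sparc and Ccn1 lie below them, where the 0.39 rise of the subtracted index places an unchanged gene, and the other 4 members overlap.

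For other cell types, the marker lists were counted and summed. Among 7 tested tendon, valve and cartilage markers 2 rose, Fmod (log2 fold change 1.79) and Prg4 (0.64), and 0 fell (also 0 at an unadjusted p under 0.05 and by limma voom). Their summed level was 101 to 153 in WT and 191 to 236 in Mettl3 KO hearts. Of 6 epicardial and mesothelial markers Upk3b (1.57) and Lrrn4 (1.07) rose, with a summed level of 75 to 120 in WT and 100 to 161 in Mettl3 KO hearts. With an index of atrial markers as a covariate, Upk3b had a log2 fold change of 0.13, Lrrn4 of 0.52 and Prg4 of 0.59 (adjusted p = 0.943, 0.64 and 0.246 by limma). Leaving out single libraries also ended these calls: Mettl3 KO replicate 3 or 4 for Upk3b, those or WT replicate 2 or 3 for Lrrn4, and WT replicate 2 or 4 or Mettl3 KO replicate 4 for Prg4. Of 8 endothelial markers 4 fell, namely Kdr (-0.26), Tie1 (-0.27), Cdh5 (-0.20) and Flt1 (-0.15), and Vwf rose by 0.45, with a summed level of 5183 to 5359 in WT and 4731 to 5131 in Mettl3 KO hearts. Of 8 smooth muscle and pericyte markers 1 fell, Abcc9 (-0.20), with a summed level of 4595 to 4921 in WT and 4206 to 4498 in Mettl3 KO hearts. Kdr, Tie1, Flt1 and Abcc9 had -0.19, -0.29, -0.09 and -0.09 with the atrial covariate (adjusted p = 0.119, 0.108, 0.543 and 0.399 by limma), and Cdh5 lost its call without WT replicate 2 or Mettl3 KO replicate 3. Platelets, which carry Thbs1 protein, left 27 to 48 normalized read counts of their markers in any library, and 0 of 3 tested genes passed the limma test (0 at an unadjusted p under 0.05 and 0 by limma voom). The part of these cell types in the members' values was not tested.

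Atrial markers also moved with genotype. Of 7 atrial markers 6 rose, including Bmp10, Sln, Myl7 and Myl4, and their summed level was 844 to 1093 in WT and 1168 to 2264 in Mettl3 KO hearts. Mettl3 KO replicate 1 had an atrial index, the mean log2(value + 1) of these markers, of 5.65, close to the 3.73 to 5.56 of WT hearts, while the other 3 Mettl3 KO hearts had 7.44 to 8.04. With the atrial index as a covariate Cilp (1.98), Postn (1.06), Thbs4 (1.43), Thbs1 (0.66) and Ccn2 (0.52) kept an adjusted p under 0.05 by limma, and Tnc (0.85, adjusted p = 0.064) and Ccn5 (1.92, adjusted p = 0.203) did not.

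The members did not vary as a block among the Mettl3 KO hearts. Replicate 4 was the highest for 5 of the 7 called members. Replicate 1 was the highest for the other 2, Cilp and Postn, but replicate 3 was nearly equal (357 against 356, and 846 against 843). The lowest was replicate 1 for 3, replicate 2 for 3 and replicate 3 for 1. Likeness of pattern was measured as the root mean square difference between log2(value + 1) profiles over the 8 libraries, each centred on its own mean. Among members the nearest pairs were Ccn1 with Sparc (0.143), Ccn2 with Thbs1 (0.150) and Thbs1 with Tnc (0.152), and Cilp was nearest to Thbs4 (0.309).

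By the same measure the nearest genes outside the members were sought among 12019 candidates. Nearest to Cilp were Pamr1 (0.237), Inmt (0.329) and Ptn (0.346), and Ptn, the secreted growth factor pleiotrophin, was also nearest to Thbs4 (0.145), ahead of Comp (0.248) and Pdgfrl (0.252). Thbs1 was matched by Col8a1 (0.0719), Ndnf (0.0898) and Itgbl1 (0.0978), and Itgbl1 (0.141), Tpgs1 (0.149) and 2410004B18Rik (0.149) were nearest to Tnc. Col14a1, a collagen of the fibril surface, was nearest to Postn (0.122), followed by Cacnb1 (0.135) and Gm45769 (0.136). For Ccn2 they were Gpank1 (0.117), Cyp1b1 (0.120) and Slc7a2 (0.132), and for the scarce Ccn5, with larger distances, Cep126 (0.675), Kif26b (0.731) and Armh4 (0.766). This likeness is a description over 8 libraries of 2 genotypes and contains the genotype difference itself.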

How the data were processed

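Total RNA of hearts (1 µg) was sequenced as stranded single-end reads of 72 nt. The study's methods give trimming with Trimmomatic 0.39, alignment to mm39 with STAR 2.7.11a, removal of duplicates with Picard 3.1.1, strand-specific counting with featureCounts 2.0.4 and normalization by the authors with DESeq2 1.36.0. Duplicate removal in single-end data can understate short, abundant genes. What was deposited is a score, DESeq2-normalized counts that the authors rounded to whole numbers, so count models were not run. Reads per library (2631904 to 3061268) were estimated by maximum likelihood from which low whole numbers occur. In 8 simulated libraries the largest error of the scaling factor was 3.74e-06, and factors within 0.01 of 1 were not simulated.

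The fit covered 20313 genes whose mean value reached 1, and left out 2732. It used limma 3.58.1 (R 4.3.3) on log2(value + 1), with genotype alone in the model and a trend of variance with mean. P-values were two-sided and adjusted by Benjamini-Hochberg over all of these genes. Fold changes on this scale understate the change of low genes. Ratios between relatives were tested by exact permutation over 70 splits. Tested on simulated data, the limma fit recovered 59.5% of 200 genes given a log2 change of 1, or 94.6% of the 111 whose mean reached 20. Of its calls 5.56% were false. The simulation gave every gene the same small spread beyond counting error (dispersion 0.005) and no library differences. Some real genes vary more, such as Cilp in WT hearts (86.0 ± 24.6, SD, n = 4), so these rates need not hold for them.

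The members and lists were chosen with earlier results of these data known. All members were named, with up to 4 called genes of each list (largest changes), markers at 0 and the 3 genes nearest in pattern (mean at least 20) to each called member; others were chosen after their values were seen. List counts omit 1 gene that is not reported here. Gene positions are those of the deposited table (mm39), exon lengths and transcripts come from GENCODE M21, and promoters from RefSeq (GRCm38.p6). Alternatives were other filters, pseudocounts, scalings, limma voom, marker covariates, a replicate block and each library left out.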

Additional observations from a re-analysis of the deposited data

Results flagged for a closer look

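In the Mettl3 KO group, 1 library stood far from the others for Spp1. The values were 14, 11 and 15 normalized read counts in replicates 1 to 3 and 77 in replicate 4, and the gap to the nearest library took up a share of 0.9394 of the whole range. In that library the recovered reads of Spp1 were 83, so the value does not rest on a few reads. Of 20 groups tested (10 members in 2 genotypes) this was the only such group, and chance alone gives about 1. Gpnmb was highest in the same library, at 81 normalized read counts.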

How the results depend on the processing

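Over 19 alternatives, Cilp, Postn, Ccn2, Thbs1 and Thbs4 lost their call only with the fibroblast index as a covariate, and in that fit Postn turned to -0.11 while the others stayed positive. The 1607 genes called became 8 with the fibroblast index and 838 with the atrial index, and 1019 to 1596 with a library left out. The 7 members called became 0 with the fibroblast index, 5 with the atrial index and 6 to 8 with a library left out. In the same order, the 47 called genes of the lists became 0, 29 and 36 to 50. Sparc changed sign around 0, with -0.0101 at equal library totals, -0.00312 with TMM-like scaling, -0.0346 with quantile normalization, -0.00932 with limma voom, and -0.0274 to 0.0407 with a library left out. Scalings moved the median of all genes by less than 0.02. Ccn5 was not tested with a filter at a mean of 10. With a library left out, the log2 ratio differences were 0.833 to 1.11 (Ccn2/Ccn1), 0.713 to 0.937 (Thbs4/Thbs1), 0.454 to 0.621 (Postn/Tgfbi) and -0.0269 to 0.00548 (Sparc/Sparcl1, reversed to 0.00378 without WT replicate 2 and 0.00548 without Mettl3 KO replicate 4); the smallest exact p is then 0.0571, so none could pass. With a pseudocount of 5 they were 0.938, 0.69 and 0.524 for the first ratios. Same-numbered libraries correlated at 0.0522, 0.0421, -0.0414 and 0.0878 across genes. WT replicates 1 and 4 correlated best with their own number, and WT replicates 2 and 3 did not. These small values do not settle whether the numbers pair the samples. A replicate block gave 1346 called genes and changed no call of a member. The standard errors of the members in it were 0.678 (Cilp) to 1.21 (Spp1) times those of the reported fit. The ratio differences in it, 0.952, 0.799 and 0.523, had an adjusted exact p of 0.167 (4 pairs allow no p under 0.125). Each covariate fit differs from the reported fit in the index added, and the cause of the changes was not tested. Depth limits Ccn5 and Spp1, whose values reach the floor of 3 reads.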
